A study of Saccharomyces cerevisiae with 15 samples.

Results

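The 42 genes described here carry a yeast protein through its first steps in the secretory pathway: recognition of the signal sequence, entry into the endoplasmic reticulum (ER), folding there, and the attachment of sugars. They were taken by gene symbol from the annotation of the array, out of 5656 genes that have a named probe set. The rule used no measured value to choose genes, but the genes were chosen with earlier results of these data known. Of the 42 genes, 41 have 1 probe set, and HAC1, which has 5, is represented by the one with the highest mean signal. Signals under 16 were set to 16, the floor, and 40 of the 42 genes read above it on at least 1 array. CNE1 and IRE1 stayed under 16 throughout and were not tested.

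The cells were of Saccharomyces cerevisiae VTT-C-99318, a haploid derivative of CEN.PK2-1D that carries the Pichia stipitis xylose reductase and xylitol dehydrogenase genes XYL1 (PGK1 promoter) and XYL2 (modified ADH1 promoter) at ura3, and an extra copy of its own xylulokinase gene XKS1 with kanMX at his3. The parent is of mating type alpha with mutant alleles of LEU2, URA3, TRP1 and HIS3 and with MAL2-8c and SUC2. All samples share this genotype and 1 strain background. Glucose repressed cells (Glc5h) were taken after 5 h and glucose derepressed cells (Glc24h) after 24 h from the same 3 batch cultures on 50 g per litre glucose, and xylose-grown cells (Xyl72h) after 72 h from 3 other batch cultures on 50 g per litre xylose, all in aerated bioreactors with synthetic complete medium. The cultures are numbered 0, 1 and 2 by fermentation, and values below stand in that order. At 24 h the glucose was used up and ethanol had accumulated, while xylose remained at 72 h. The states also differ in culture age and growth rate, and these cannot be told apart from the sugar.

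Proteins destined for secretion, the cell wall, the vacuole or the plasma membrane enter the ER through the Sec61 channel, either while still being translated, guided by the signal recognition particle, or afterwards with the help of Sec62 and Sec63. Signal peptidase removes the signal sequence, Kar2, the yeast BiP chaperone, and its partners help the chain to fold, and the protein disulphide isomerase family joins cysteines. A glycan built on the lipid dolichol is moved to asparagines by oligosaccharyltransferase, mannose is added to serines and threonines by the Pmt proteins, and both routes draw on GDP-mannose. Much of this traffic in yeast supplies the growing cell wall and plasma membrane.

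The 15 arrays had 50.61 to 53.54% of their values under 16, and the number of arrays and the strength of the signals limit the precision. All 8 glucose-repressed marker genes (FBP1, PCK1, ICL1, MLS1, ADH2, JEN1, ACS1 and SUC2) were higher in Glc24h than in Glc5h by limma's adjusted p, and 7 of 8 were higher in Xyl72h, FBP1 having an adjusted p of 0.0516. Of 4 reference genes for normalisation, TAF10, TFC1, UBC6 (itself a gene of ER-associated degradation) and TRS65, 0 passed limma's test in any comparison (at an unadjusted p under 0.05, 1 was lower in Glc24h and 2 in Xyl72h than in Glc5h), and their median log2 differences were -0.43 in Glc24h and -0.42 in Xyl72h against Glc5h. The ratio of the 3' to the 5' actin probe set, a sign of RNA quality, was 10.28 on the Glc24h array of culture 1 and 1.858 to 3.007 on the other 14 arrays. A signal is relative to the other signals of its array, so a change in total RNA per cell would not appear in it.

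All 40 tested genes had their highest mean log2 signal in Glc5h, except that 2 of them were higher in Xyl72h when the arrays were scaled on the reference genes, and that HAC1 was higher in Glc24h when Glc24h culture 1 was left out. For 7 of the 40 this direction was fixed in advance. SRP14, SEC63, JEM1, EUG1, MPD1, ERO1 and OST2 lay at the floor in both later states. They entered the test through Glc5h alone and could not have gone the other way. ALG5 lay at the floor in every Glc24h culture, so its direction in Glc24h was fixed too. The direction is a result for the other 33, but for ALG5 in Xyl72h alone. In Glc24h 30 of 40 were lower than in Glc5h and 0 were higher, where 19.1% of all tested probe sets were lower and 14.4% higher. In Xyl72h 26 of 40 were lower than in Glc5h and 0 were higher, against 14% lower and 11.7% higher among all tested probe sets. At an unadjusted p under 0.05 in limma 35 and 32 of the 40 were lower and 0 were higher. Among all 5877 tested probe sets 1450 and 1240 were lower and 1134 and 1028 higher at that threshold. The median log2 difference of the 40 genes was -1.21 in Glc24h and -1.04 in Xyl72h, where the medians over all 5877 probe sets were -0.03 and -0.02. Of the 40 genes, 26 passed the test in both comparisons, 4 in Glc24h but not in Xyl72h (PDI1, MPD1, OST5 and PSA1), and 10 in neither. Both comparisons use the same Glc5h cultures, so they are not independent of each other.

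The Xyl72h and Glc24h cells differed in few of these genes: 2 of 40, SWP1 and DPM1, were higher in Xyl72h and 0 were lower, against 3.37% and 2.26% of all tested probe sets. At an unadjusted p under 0.05 in limma 8 of 40 were higher and 0 lower, against 657 and 473 of all 5877 tested probe sets. Over the 33 genes that rose above the floor in at least 1 of the 2 states the median log2 difference was 0.26, with 27 mean log2 signals higher and 6 lower in Xyl72h, and the other 7 lay at the floor in both. The direction of this median turned under scaling on the reference genes, where it was -0.066 over all 40. In the F-test over the 3 states 28 of 40 genes passed an adjusted p of 0.05, against 34.3% of all tested probe sets, and 26 passed the unadjusted p of 0.01 that the methods of the study use, against 29.5%.

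**Figure D1:**
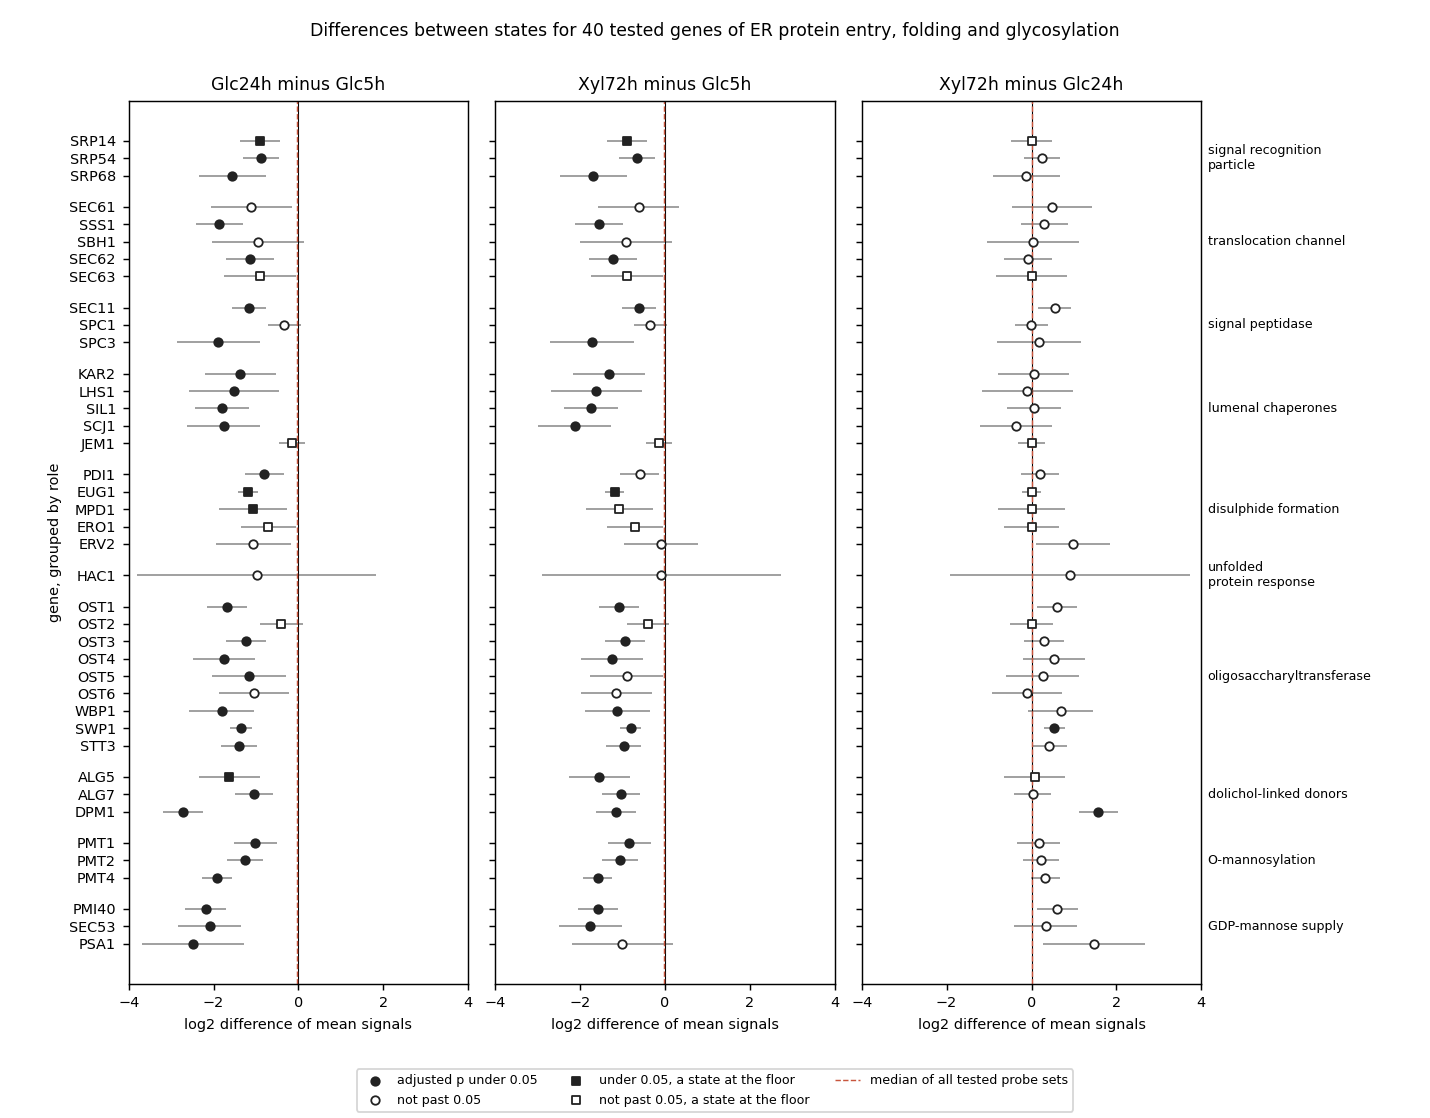
Differences of mean log2 signals (horizontal axes) for the 40 tested genes, ordered by role, with 95% confidence intervals from the limma fit, n = 3 cultures a state. Filled symbols have an adjusted p under 0.05 and squares have a state at the floor. All points of both panels against Glc5h lie left of 0 (38 of 40 for Xyl72h when scaled on the reference genes). In these panels a square could not lie right of 0. The points of Xyl72h against Glc24h lie around 0.

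The counts were read in other ways too. A state lay wholly at the floor for 8 genes in Glc24h and 7 in Xyl72h, and for these a fold is a lower bound and the spread of that state is 0 by construction, which can make p too small. Among the genes with no state at the floor 26 of 32 were lower in Glc24h and 24 of 33 in Xyl72h. All tested probe sets were not counted under that restriction, so their shares given above are not like for like with these counts. The signals of the 3 cultures lay wholly below those of Glc5h for 33 genes in Glc24h and for 32 in Xyl72h, against 23.9% and 21.6% of all tested probe sets, and wholly above for 0 genes, against 18.6% and 19.4%. These counts include SRP14, SEC63, EUG1 and MPD1 in both states and ALG5 in Glc24h. All cultures of those genes lay at the floor there, so they could not have lain above Glc5h. With the glucose cultures paired by fermentation in a fit of these groups alone, an alternative added after the data were seen, 18 of 40 were lower in Glc24h against 8.75% of all. The 12 Glc24h calls lost in that fit were those of SRP14, SRP68, SEC62, KAR2, LHS1, MPD1, OST5, WBP1, ALG5, PMT1, PMT2 and PSA1, with adjusted p of 0.0579 to 0.141 given beside each gene as the paired adjusted p. Scaling on the reference genes left 8 of 40 lower in Glc24h and 8 in Xyl72h, against 5.99% and 5.04% of all, and moved the median of all tested probe sets to 0.42 and 0.07. Leaving out Xyl72h culture 2 left 17 of 40 lower in Xyl72h, and without Glc24h culture 1, the array with the high actin ratio, the counts lower than Glc5h were 27 and 24.

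The signal recognition particle binds the signal sequence as it leaves the ribosome and docks the ribosome at the ER. Its 3 members were all lower in both states than in Glc5h. SRP54, the GTPase subunit that holds the signal sequence, gave signals of 184, 139.8 and 181 in Glc5h, 103, 72.2 and 97.9 in Glc24h, and 119, 95.3 and 107 in Xyl72h. The Glc5h cultures stood above all 6 others, while the ranges of Glc24h and Xyl72h overlapped. The log2 difference from Glc5h was -0.89 ± 0.18 (SE, adjusted p = 0.0085) in Glc24h and -0.65 ± 0.18 (adjusted p = 0.0366) in Xyl72h. SRP68, a structural subunit, read 89.0, 53.7 and 42.1 in Glc5h, 16, 30.4 and 16 in Glc24h, and 17.5, 20.7 and 16.7 in Xyl72h. It lay close to the floor in most cultures of the last 2 states, and was 2.96-fold lower in Glc24h (adjusted p = 0.0106) and 3.22-fold lower in Xyl72h (adjusted p = 0.0107). SRP14, a small subunit, read 35.5, 35.6 and 20.9 in Glc5h and 16 in all 6 other cultures, so it was at least 1.86-fold lower in each state, with adjusted p of 0.0124 in Glc24h and 0.0166 in Xyl72h. In the paired fit of the glucose cultures the Glc24h calls of SRP68 and SRP14 were lost (paired adjusted p of 0.084 and 0.0838). Both SRP14 calls were also lost with a floor of 32, with scaling on the reference genes and with the first hybridisation only. The Xyl72h call of SRP54 was lost on leaving out Glc5h culture 0 or 2, Glc24h culture 2 or any Xyl72h culture (adjusted p of 0.0523 to 0.110), and that of SRP14 without Glc5h culture 0 or Xyl72h culture 0 or 2 (0.0527 to 0.0554).

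Of the 5 genes of the translocation channel, SSS1 and SEC62 were lower in both states and SEC61, SBH1 and SEC63 did not pass the test. SSS1, the gamma subunit of the channel, read 274, 244 and 201 in Glc5h, 68.3, 87.2 and 46.9 in Glc24h, and 73.2, 93.5 and 77.1 in Xyl72h. Its Glc5h cultures stood far above the other 6, by a fold of 3.63 over Glc24h (log2 -1.86 ± 0.24, adjusted p = 0.00126) and 2.94 over Xyl72h (log2 -1.56 ± 0.24, adjusted p = 0.004). SEC62, which serves entry after translation, read 317, 223 and 180.1 in Glc5h, 120.2, 79.9 and 122 in Glc24h, and 92.2, 101 and 108 in Xyl72h, again without overlap with Glc5h. The differences were -1.15 ± 0.24 (adjusted p = 0.00976) and -1.22 ± 0.24 (adjusted p = 0.0104) on the log2 scale, with a paired adjusted p of 0.0683 for the first.

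SEC61, which encodes the pore itself, read 351, 301 and 321 in Glc5h, 262, 76.7 and 169 in Glc24h, and 267, 191 and 183 in Xyl72h. All Glc5h cultures were above the other 6, but the Glc24h cultures were spread over a range wider than the difference, with culture 1 lowest. The log2 difference was -1.11 ± 0.41 in Glc24h (adjusted p = 0.0724) and -0.62 ± 0.41 in Xyl72h (adjusted p = 0.309), and with the fermentation number as a block in all 3 states the first had an adjusted p of 0.0386. It did not pass with the glucose cultures alone paired (paired adjusted p = 0.133) or without Glc24h culture 1 (-0.62, adjusted p = 0.103). SBH1, the beta subunit, read 130.4, 151 and 48.1 in Glc5h, 44.8, 74.8 and 38.8 in Glc24h, and 56.3, 63.7 and 38.5 in Xyl72h. In each state culture 2 was lowest and culture 1 highest, and the states overlapped. Its log2 differences were -0.95 ± 0.47 (adjusted p = 0.157) in Glc24h and -0.93 ± 0.47 (adjusted p = 0.189) in Xyl72h, which passed the test with the block in all 3 states (adjusted p of 0.0321 and 0.0426), while the paired adjusted p of the first was 0.119. SEC63, the J-domain protein that brings Kar2 to the channel, read 57.8, 23.8 and 19.2 in Glc5h and 16 in the other 6 cultures, a mean signal at least 1.86-fold lower that did not pass the test (adjusted p of 0.0957 and 0.111). Under a floor of 4 SEC63 passed the test in both states (log2 -2.33, adjusted p = 0.00774, and -2.07, adjusted p = 0.0168).

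Signal peptidase cuts off the signal sequence once the chain has entered. SEC11, its catalytic subunit, read 93.3, 108 and 110.1 in Glc5h, 46.8, 56.0 and 37.9 in Glc24h, and 58.6, 72.3 and 72.6 in Xyl72h. The 3 states did not overlap, with Xyl72h between the others. It was 2.24-fold lower in Glc24h (log2 -1.16 ± 0.17, adjusted p = 0.00216) and 1.53-fold lower in Xyl72h (log2 -0.62 ± 0.17, adjusted p = 0.0341), and the difference between Xyl72h and Glc24h, 0.54 ± 0.17, had an adjusted p of 0.127. SPC3, a subunit needed for the activity of the enzyme, read 118, 81.5 and 49.4 in Glc5h, 19.9, 29.6 and 16 in Glc24h, and 16, 37.2 and 22.7 in Xyl72h. It was lower by 3.70-fold in Glc24h (adjusted p = 0.012) and 3.28-fold in Xyl72h (adjusted p = 0.0228), with the low states near the floor. SPC1, a small non-essential subunit, read 22.6, 16 and 24.8 in Glc5h and 16 to 17.4 elsewhere, too close to the floor to show a difference (adjusted p of 0.16 and 0.172). The Xyl72h call of SEC11 was lost without any 1 of the Glc5h or Xyl72h cultures or Glc24h culture 0 (adjusted p of 0.0508 to 0.111), and that of SPC3 without Glc5h culture 0 or 1 or Xyl72h culture 0 or 2 (0.0653 to 0.0816).

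Of the 5 tested chaperones of the ER lumen, 4 were lower in both states than in Glc5h, and JEM1 did not pass the test. KAR2, which encodes the Hsp70 chaperone BiP, read 1366, 881 and 510.2 in Glc5h, 333, 286 and 375 in Glc24h, and 400.1, 402 and 248 in Xyl72h. The Glc5h cultures were all above the others, yet they differed among themselves by more than the other states did, with culture 0 highest and culture 2 lowest. KAR2 was 2.58-fold lower in Glc24h (log2 -1.37 ± 0.36, adjusted p = 0.0228) and 2.49-fold lower in Xyl72h (log2 -1.32 ± 0.36, adjusted p = 0.034). Without Glc5h culture 2 these were -1.74 (adjusted p = 0.00592) and -1.68 (adjusted p = 0.00909). The Glc24h call was lost without Glc5h culture 0 or 1 or any Glc24h culture (adjusted p of 0.0518 to 0.0722), and the Xyl72h call without any culture other than Glc5h culture 2 (0.0533 to 0.108). The Glc24h call was also lost under cyclic loess (-0.95, adjusted p = 0.0546), quantile normalisation (-0.75, 0.0652), scaling on the reference genes (-0.61, 0.329), no filter (0.0629), a fit of the 2 groups alone (0.0572) and the pairing (paired adjusted p = 0.102), and the Xyl72h call under the reference genes (-0.96, 0.187), no filter (0.0902) and the 2 groups alone (0.0995).

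The tested partners of Kar2 were likewise highest in Glc5h. SIL1, a nucleotide exchange factor for Kar2, read 63.3, 83 and 37.7 in Glc5h, 16, 18.1 and 16.2 in Glc24h, and 16, 20.5 and 16 in Xyl72h. It stood clear of the floor in Glc5h alone, and was 3.48-fold lower in Glc24h (log2 -1.80 ± 0.27, adjusted p = 0.00251) and 3.35-fold lower in Xyl72h (log2 -1.75 ± 0.27, adjusted p = 0.00422). SCJ1, a J-domain co-chaperone of Kar2, read 177, 132 and 102 in Glc5h, 52.5, 39.8 and 29.2 in Glc24h, and 46.6, 31.5 and 19.5 in Xyl72h. In each state culture 0 was highest and culture 2 lowest, and no culture of the later states reached those of Glc5h. Its log2 difference in Xyl72h, -2.13 ± 0.37 (adjusted p = 0.00603), was the lowest of the 40 genes in that comparison, and in Glc24h it was -1.76 ± 0.37 (adjusted p = 0.00917). LHS1, an Hsp70-related exchange factor, read 75.7, 77.9 and 22 in Glc5h and 16 to 21.8 in the other cultures, with log2 differences of -1.51 (adjusted p = 0.0382) and -1.61 (adjusted p = 0.0382). Both LHS1 calls were lost without any culture other than Glc5h culture 2 (adjusted p of 0.0586 to 0.134), and without that culture the differences were -2.12 and -2.22. The paired adjusted p of LHS1 was 0.105, and scaling on the reference genes (adjusted p of 0.205 and 0.122) and a floor of 32 (0.0835 and 0.0995) were among the other settings that lost both calls. JEM1, another J-domain protein, read above 16 in Glc5h culture 1 alone, at 21.7. CNE1, the yeast calnexin, lay under 16 throughout, and with a floor of 4 in place of 16 its log2 difference from Glc5h was -1.05 in Glc24h (adjusted p = 0.00398) and -0.61 in Xyl72h (adjusted p = 0.0401).

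Disulphide bonds are made by isomerases of the PDI family, which Ero1 reoxidises. PDI1, the essential isomerase, read 765, 598 and 585 in Glc5h, 422, 320.4 and 375 in Glc24h, and 542, 397 and 359 in Xyl72h. The Glc5h cultures were above all others, and it was 1.74-fold lower in Glc24h (log2 -0.80 ± 0.20, adjusted p = 0.0172). In Xyl72h the difference of -0.60 ± 0.20 had an adjusted p of 0.0606, and 0.018 with the fermentation number as a block. The Glc24h call of PDI1 was lost without Glc5h culture 0 (adjusted p = 0.0562) or Glc24h culture 1 (0.0522). It was also lost, with a smaller difference, under cyclic loess (-0.36, adjusted p = 0.0537), quantile normalisation (-0.26, adjusted p = 0.18) and scaling on the reference genes (-0.039, adjusted p = 0.946).

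EUG1 and MPD1 encode non-essential relatives of PDI1. EUG1 read 33.4, 40.5 and 35.8 in Glc5h and 16 in the other 6 cultures, at least 2.28-fold lower in each state with adjusted p of 0.000248 in Glc24h and 0.000404 in Xyl72h. These p rest in part on a spread of 0 at the floor. With a floor of 32 both EUG1 calls were lost (log2 -0.19 in each state, adjusted p of 0.123 and 0.145). MPD1 read 43.7, 48.9 and 17.9 in Glc5h and 16 in the other 6 cultures, at least 2.11-fold lower in Glc24h with an adjusted p of 0.0455, and with an adjusted p of 0.0553 in Xyl72h. Without Glc5h culture 2 the difference in Glc24h was -1.53 (adjusted p = 0.00023), and without any 1 of the other 8 cultures the call was lost (0.0704 to 0.151), as it was with a floor of 32 (0.108) and in the paired fit (paired adjusted p = 0.141). Under a floor of 4 MPD1 passed in both states (log2 -2.09, adjusted p = 0.016, and -2.16, adjusted p = 0.019). ERO1, the oxidase that passes electrons from PDI to oxygen, read 38.1, 29.2 and 16 in Glc5h and 16 in the other 6 cultures, with adjusted p of 0.0915 and 0.107. Under a floor of 4 ERO1 passed the test in both states (log2 -1.66, adjusted p = 0.027, and -1.52, adjusted p = 0.0455).

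ERV2, a second oxidase of the ER, was the member of this group whose mean in Xyl72h came nearest to Glc5h. It read 177, 129 and 79.9 in Glc5h, 67.2, 84.1 and 35.7 in Glc24h, and 108, 109.7 and 129 in Xyl72h. The Xyl72h cultures lay within the range of Glc5h and wholly above those of Glc24h. The log2 difference from Glc5h was -1.06 ± 0.38 in Glc24h (adjusted p = 0.0644, 0.0485 with the fermentation number as a block in all 3 states, and a paired adjusted p of 0.0586). In Xyl72h it was -0.09 ± 0.38 (adjusted p = 0.923, 95% interval of -0.97 to 0.79). Xyl72h against Glc24h gave 0.97 ± 0.38, with an adjusted p of 0.213.

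HAC1 encodes the transcription factor of the unfolded protein response, and its messenger is activated by splicing through Ire1, the sensor in the ER membrane. Splicing was not measured here. The HAC1 probe set with the highest mean read 196, 379.7 and 330.1 in Glc5h, 319.9, 16 and 617 in Glc24h, and 272, 206 and 369 in Xyl72h. The Glc24h cultures spanned the whole range, because culture 1 was at the floor. All 4 HAC1 probe sets that were measured had their lowest value in that culture, 16, 46.1, 16 and 16, and the 5th lay at the floor in every culture. The same culture had the actin 3' to 5' ratio of 10.28, and the part of RNA quality in these values was not tested. The log2 difference of HAC1 from Glc5h was -0.99 ± 1.21 in Glc24h (adjusted p = 0.565) and -0.08 ± 1.21 in Xyl72h (adjusted p = 1), with a 95% interval of -3.81 to 1.84 for the first. Without Glc24h culture 1 the 4 measured probe sets gave 0.61, 0.26, -0.17 and -0.14 in Glc24h, with adjusted p of 0.323, 0.559, 0.785 and 0.889, so they did not share a direction and none passed the test. IRE1 lay under 16 on every array, a level treated here as not measured. With a floor of 4 it read 4, 6.37 and 4.18 in Glc5h, 7.87, 11 and 7.64 in Glc24h, and 6.98, 6.815 and 4.91 in Xyl72h. Its log2 difference from Glc5h was then 0.88 in Glc24h (adjusted p = 0.0341) and 0.38 in Xyl72h (adjusted p = 0.328). The highest value, 11, came from Glc24h culture 1.

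**Figure D2:**
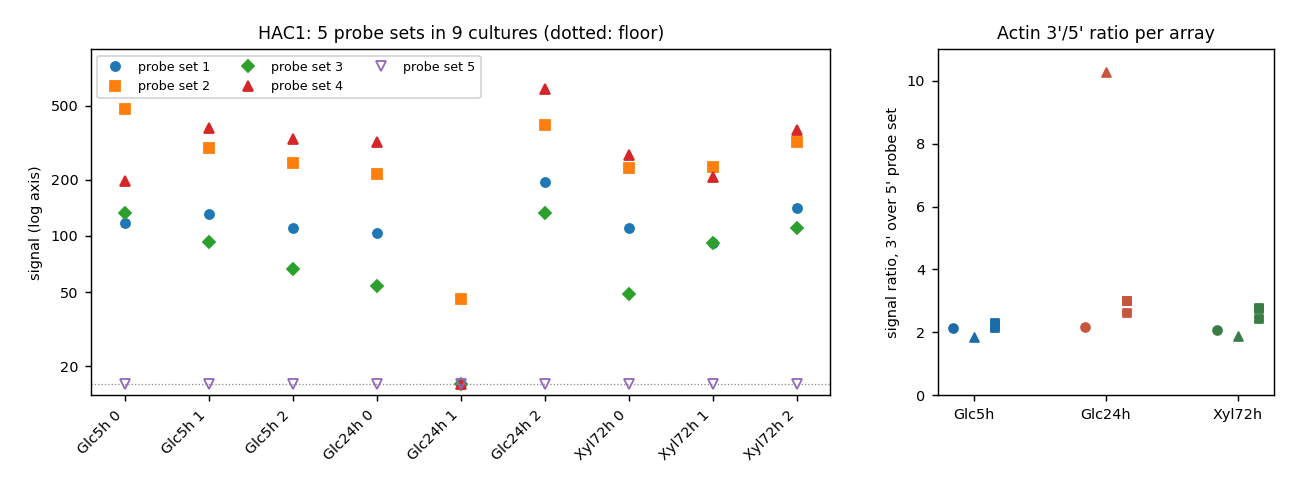
Left, signals (log axis) of the 5 HAC1 probe sets in the 9 cultures, with the floor of 16 dotted; right, the ratio of the 3' to the 5' actin probe set on each of 15 arrays (circle, triangle and square for fermentations 0, 1 and 2). In Glc24h culture 1 the 4 measured probe sets read 16 to 46.1 and the actin ratio was 10.28.

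Oligosaccharyltransferase moves the finished glycan from dolichol to asparagines of the entering chain. Of its 9 subunit genes 7 were lower in Glc24h and 6 in Xyl72h than in Glc5h, with median log2 differences of -1.35 and -0.97. SWP1 read 261, 255 and 261 in Glc5h, 107, 92.2 and 106 in Glc24h, and 151, 159 and 134 in Xyl72h. The cultures of a state were close to each other and the 3 states did not overlap. SWP1 was 2.55-fold lower in Glc24h (log2 -1.35 ± 0.11, adjusted p = 0.000208) and 1.75-fold lower in Xyl72h (log2 -0.81 ± 0.11, adjusted p = 0.00245), and 1.46-fold higher in Xyl72h than in Glc24h (log2 0.54 ± 0.11, adjusted p = 0.0332). This last call was lost with the fermentation number as a block (adjusted p = 0.0519) and on leaving out any Glc24h or Xyl72h culture (0.0525 to 0.108).

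STT3, the catalytic subunit, read 115, 136 and 144 in Glc5h, 50.8, 44.1 and 55.4 in Glc24h, and 52.4, 74.5 and 76.2 in Xyl72h. Glc5h stood apart from both other states, which touched through Xyl72h culture 0. Its log2 differences from Glc5h were -1.39 ± 0.18 in Glc24h (adjusted p = 0.00128) and -0.97 ± 0.18 in Xyl72h (adjusted p = 0.0078). OST1, a subunit beside the catalytic one, read 371, 374 and 275 in Glc5h, 113, 89.3 and 116 in Glc24h, and 146, 203 and 138 in Xyl72h. The order of the states was that of SWP1, without overlap, with log2 differences of -1.68 ± 0.20 (adjusted p = 0.000972) and -1.07 ± 0.20 (adjusted p = 0.00858). Xyl72h against Glc24h was 0.60 ± 0.20 for OST1, with an adjusted p of 0.152.

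The other subunits ran the same way at different levels. WBP1, a partner of SWP1, fell from 402 to 487 in Glc5h to 71.9 to 183 in Glc24h (log2 -1.81, adjusted p = 0.00531, paired adjusted p = 0.066) and 209 to 212 in Xyl72h (log2 -1.12, adjusted p = 0.0428). Its Xyl72h call was lost on leaving out any Glc5h or Xyl72h culture or Glc24h culture 2 (adjusted p of 0.0541 to 0.127). OST4, a very small subunit, fell from 304 to 703 in Glc5h to 126 to 172 in Glc24h (log2 -1.76, adjusted p = 0.00483) and 182 to 255 in Xyl72h (log2 -1.24, adjusted p = 0.025), the latter call being lost without Glc5h culture 0 or 2 or Xyl72h culture 1 or 2 (adjusted p of 0.0653 to 0.0842). OST3 and OST6 encode alternative subunits with a thioredoxin-like domain, and OST3 had log2 differences of -1.24 (adjusted p = 0.00346) and -0.94 (adjusted p = 0.0138). OST6 had differences of -1.04 (adjusted p = 0.0566) and -1.14 (adjusted p = 0.0508), which passed the test with the block in all 3 states (0.0306 and 0.0292), while the paired adjusted p of the first was 0.109. OST5 had a difference of -1.16 in Glc24h (adjusted p = 0.0461), lost on leaving out any Glc5h culture, Glc24h culture 0 or 2 or Xyl72h culture 2 (0.0734 to 0.127), in the paired fit (paired adjusted p = 0.107) and on the reference genes (-0.40, 0.324), and -0.90 in Xyl72h (adjusted p = 0.117). OST2 read 30.5, 19.2 and 16 in Glc5h and 16 elsewhere, with adjusted p of 0.199 and 0.221. Under a floor of 4 OST2 passed the test in Glc24h (log2 -1.69, adjusted p = 0.024) and not in Xyl72h (-1.04, adjusted p = 0.131).

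The dolichol-linked donors are made on the cytosolic face of the ER. DPM1, dolichol phosphate mannose synthase, which supplies mannose for N-glycans, O-mannosylation and membrane anchors, read 226, 184 and 243 in Glc5h, 43.7, 27.5 and 29.2 in Glc24h, and 89.8, 106 and 97.0 in Xyl72h. The 3 states were widely separated, with Xyl72h a little past the middle. DPM1 was 6.61-fold lower in Glc24h than in Glc5h (log2 -2.72 ± 0.20, adjusted p = 0.00016), the lowest log2 difference of the 40 genes in this comparison. In Xyl72h it was 2.22-fold lower than in Glc5h (log2 -1.15 ± 0.20, adjusted p = 0.00607) and 2.98-fold higher than in Glc24h (log2 1.57 ± 0.20, adjusted p = 0.00677). The latter call held on leaving out each culture in turn, with adjusted p of 0.00517 to 0.0355, and in the blocked fit (0.0171).

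ALG7, which starts the glycan by adding the first sugar phosphate to dolichol phosphate, read 41.8, 44.9 and 30.5 in Glc5h, 19.7, 18.6 and 17.4 in Glc24h, and 16, 23.2 and 18.0 in Xyl72h. Its log2 differences from Glc5h were -1.06 ± 0.19 (adjusted p = 0.00531) and -1.03 ± 0.19 (adjusted p = 0.00798). Both calls were lost with a floor of 32 and with scaling on the reference genes. The 2 later states differed by 0.02 ± 0.19 (95% interval of -0.42 to 0.47), but both lay close to the floor, where a difference could hardly show. ALG5, which makes dolichol phosphate glucose, read 74.4, 56.8 and 28.7 in Glc5h, 16 in every Glc24h culture, and 16.3, 18.1 and 16.4 in Xyl72h. It was at least 3.10-fold lower in Glc24h (adjusted p = 0.00626, paired adjusted p = 0.0633) and 2.93-fold lower in Xyl72h (adjusted p = 0.0104). Both ALG5 calls were lost with a floor of 32, and that in Xyl72h also with scaling on the reference genes.

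Protein O-mannosyltransferases add the first mannose to serines and threonines, chiefly of cell wall and secreted proteins. PMT4 read 206, 205 and 187 in Glc5h, 45.2, 56.3 and 57.5 in Glc24h, and 57.9, 78.3 and 64.0 in Xyl72h. The cultures of each state lay close together, and it was 3.78-fold lower in Glc24h (log2 -1.92 ± 0.15, adjusted p = 0.000193) and 3.01-fold lower in Xyl72h (log2 -1.59 ± 0.15, adjusted p = 0.00062). PMT2, which works as a complex with Pmt1, read 404, 419 and 287 in Glc5h, 166, 124 and 169 in Glc24h, and 176, 174 and 179 in Xyl72h. The Xyl72h cultures were nearly equal and just above those of Glc24h, and the log2 differences from Glc5h were -1.27 ± 0.18 (adjusted p = 0.00203, paired adjusted p = 0.0579) and -1.05 ± 0.18 (adjusted p = 0.00607). PMT1 read 96.7, 164 and 93.9 in Glc5h, 53.8, 55.7 and 59.7 in Glc24h, and 58.5, 71.9 and 61.3 in Xyl72h. Its log2 differences were -1.02 ± 0.22 (adjusted p = 0.0101, paired adjusted p = 0.0752) and -0.84 ± 0.22 (adjusted p = 0.0272), the second being lost without Xyl72h culture 0 (adjusted p = 0.0904) or 2 (0.0816).

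GDP-mannose is made from fructose 6-phosphate by Pmi40, Sec53 and Psa1 in turn, and in Glc24h these genes were among the lowest of the 40 against Glc5h. PMI40, mannose 6-phosphate isomerase, read 372, 254 and 301 in Glc5h, 75.7, 73.3 and 54.0 in Glc24h, and 105, 118 and 86.4 in Xyl72h. It was 4.56-fold lower in Glc24h (log2 -2.19 ± 0.20, adjusted p = 0.000349) and 2.98-fold lower in Xyl72h (log2 -1.58 ± 0.20, adjusted p = 0.00208), and the states did not overlap. SEC53, phosphomannomutase, read 1306, 669 and 525 in Glc5h, 197, 145 and 206 in Glc24h, and 221, 232 and 232 in Xyl72h. The Glc5h cultures were far apart but well above the rest, with log2 differences of -2.09 ± 0.32 (adjusted p = 0.00256) and -1.76 ± 0.32 (adjusted p = 0.00731).

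PSA1, GDP-mannose pyrophosphorylase, read 1375, 704 and 379 in Glc5h, 179.8, 71.6 and 163 in Glc24h, and 387, 296 and 392 in Xyl72h. In Glc24h all cultures were below all others, and PSA1 was 5.59-fold lower than in Glc5h (log2 -2.48 ± 0.51, adjusted p = 0.00872), a call that the paired fit of the glucose cultures lost (paired adjusted p = 0.0635). The Xyl72h cultures overlapped with Glc5h culture 2, and the difference of -1.01 ± 0.51 did not pass the test (adjusted p = 0.192). Xyl72h against Glc24h was 1.47 ± 0.51 (95% interval of 0.28 to 2.67 before adjustment), with an adjusted p of 0.166 although the cultures did not overlap.

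**Figure D3:**
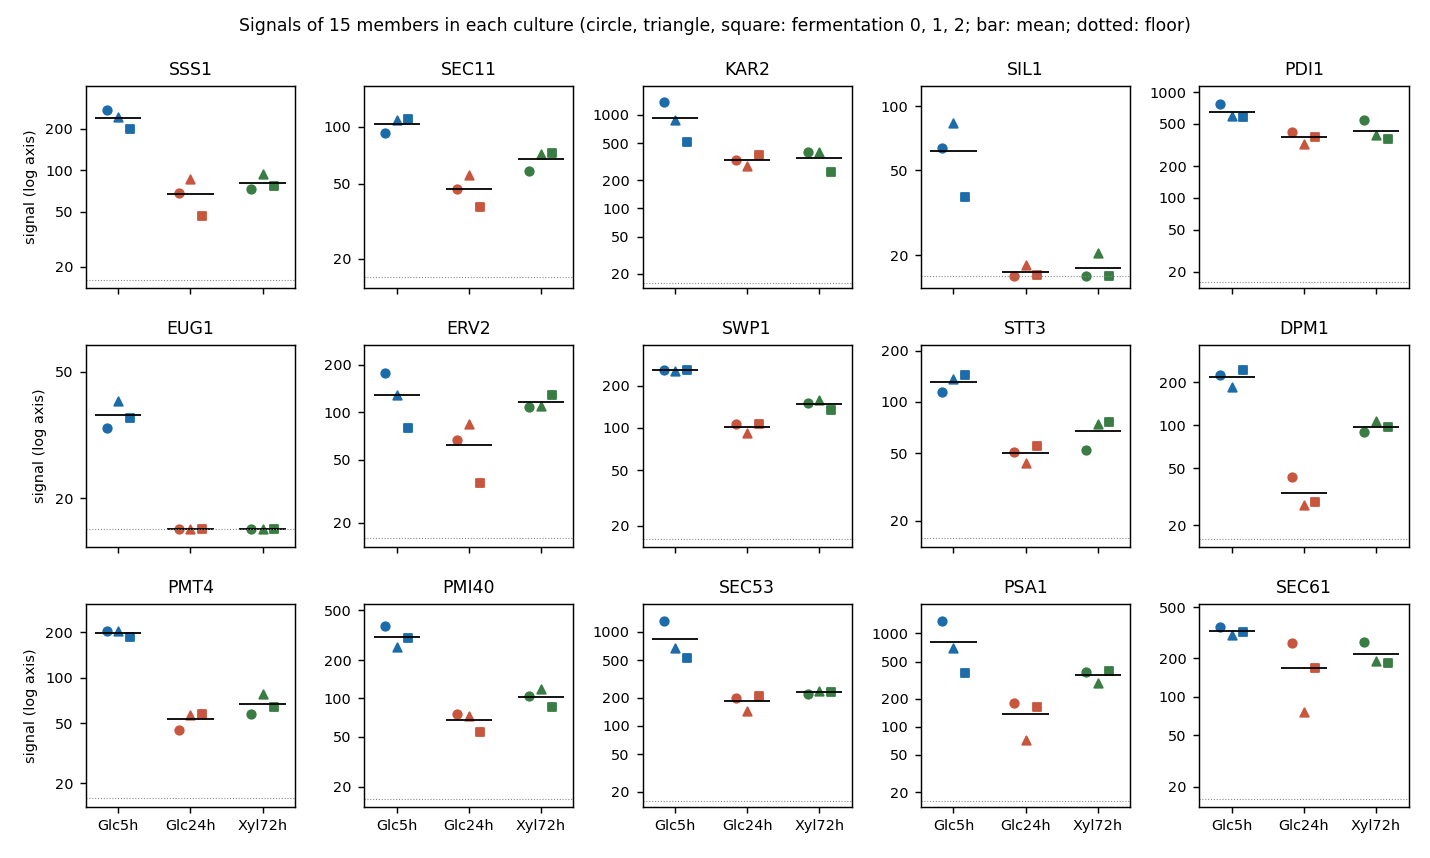
Signals of 15 of the genes (vertical log axes; symbols for fermentations 0, 1 and 2, bars for the mean of 3 cultures, dotted line for the floor of 16). Glc5h is highest throughout, the Xyl72h cultures of DPM1, SWP1 and SEC11 lie between the other states without overlap, and SEC61 and PSA1 are lowest in Glc24h culture 1.

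Most of the genes shared an order of states. The choice by gene symbol did not use this order, but earlier results of these data were known when it was made. Of the 40, 27 (67.5%) had mean log2 signals in the order Glc5h, Xyl72h, Glc24h from high to low, where 23.1% of all tested probe sets did, 6 (15%) had the order Glc5h, Glc24h, Xyl72h, where 14.4% did, and 7 (17.5%) had both later states at the floor. The 6 were SRP68, SEC62, SPC1, LHS1, SCJ1 and OST6. For the 27, the Xyl72h mean stood a median of 25.1% of the way up from Glc24h to Glc5h, from 2.28% for ALG7 to 91.62% for ERV2. Among the 23 of them that were lower in Glc24h by the test the median was 23.8% and the highest value was 59.35%, for PSA1, followed by 57.78% for DPM1. The cultures of Xyl72h lay wholly above those of Glc24h for 14 of 40 genes and wholly below for 0, against 14.5% and 10.3% of all tested probe sets. The 14 include ALG5, which lay at the floor in every Glc24h culture and could not have lain below. The 7 genes at the floor in both states could fall in neither count. The order of Xyl72h and Glc24h depends on scaling: with the arrays scaled on the reference genes 13 of 40 were higher and 22 lower in Xyl72h than in Glc24h.

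**Figure D4:**
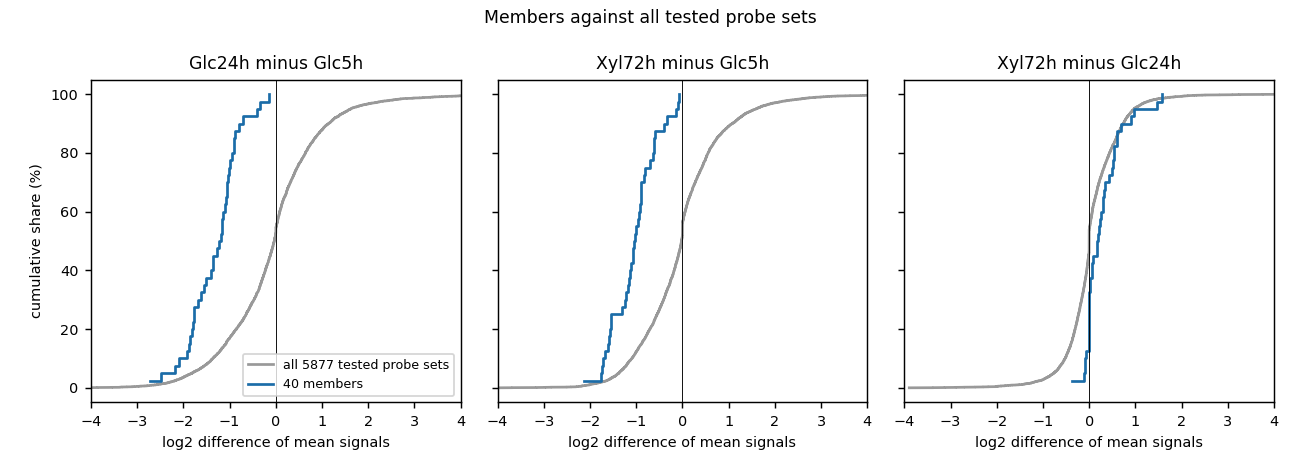
Cumulative share (%) of the 40 genes and of all 5877 tested probe sets by difference of mean log2 signals. Against Glc5h the curve of the 40 genes lies left of 0, with 75% below -1 in Glc24h and 55.0% in Xyl72h against 16.9% and 12.3% of all probe sets, and between Xyl72h and Glc24h both curves rise near 0.

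The sizes of the differences can be set beside those of the whole array. In Glc24h 30 of 40 genes (75%) had a log2 difference from Glc5h below -1, against 16.9% of all tested probe sets, and 0 had one above 1, against 12.1%. In Xyl72h 22 of 40 (55.0%) were below -1, against 12.3%, and 0 were above 1, against 10.9%. By role, the median difference in Glc24h ran from -0.90 for the signal recognition particle to -2.19 for GDP-mannose supply, and in Xyl72h from -0.62 for signal peptidase and -0.71 for disulphide formation to -1.61 for the chaperones, groups of 3 to 9 genes with HAC1 left aside. In all 5 scalings tried, with every culture kept, all 40 genes were lower in Glc24h than in Glc5h by mean log2 signal, and in Xyl72h all 40 were lower in 4 scalings and 38 under scaling on the reference genes. In the fit reported here the 7 genes at the floor in both later states could not have been higher, nor could ALG5 in Glc24h.

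The median of the 40 genes differed more between the Glc5h cultures than between those of the other states. Relative to each gene's mean over the 9 cultures, the median log2 signal of the 40 genes was 1.05, 0.93 and 0.54 in the 3 Glc5h cultures, -0.46, -0.48 and -0.50 in Glc24h, and -0.28, -0.18 and -0.31 in Xyl72h, while the median over all tested probe sets lay between -0.06 and -0.01 in each culture. Glc5h culture 0 was the highest of its state for 22 of 40 genes and culture 2 the lowest for 26. Even the Glc5h culture with the lowest median lay above all 6 other cultures. The SD between cultures on the log2 scale, as a root mean square over the 40 genes, came to 0.508 for Glc5h, 0.569 for Glc24h and 0.253 for Xyl72h, against 0.237, 0.137 and 0.108 between the 3 hybridisations of culture 2. Without HAC1 the SD between cultures was 0.509 for Glc5h, 0.36 for Glc24h and 0.247 for Xyl72h. The floor lowers the SD of the later states, since 8 genes in Glc24h and 7 in Xyl72h have an SD of 0 by construction, against 0 genes in Glc5h. The SDs of the states are therefore not like for like.

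The 10 genes that passed in neither comparison were SEC61, SBH1, SEC63, SPC1, JEM1, ERO1, ERV2, HAC1, OST2 and OST6. Of these SEC63, JEM1, ERO1 and OST2 lay at the floor in every culture of both later states, and SPC1 in most of them. SEC61, SBH1, ERV2, HAC1 and OST6 gave signals of 34.0 or more in every culture but Glc24h culture 1 of HAC1, and had standard errors of 0.35 to 1.21 on the log2 scale. In the fit with the fermentation number as a block, SEC61, SBH1, ERV2 and OST6 were lower in Glc24h, and SBH1 and OST6 in Xyl72h as well. None of the 4 passed in Glc24h in the paired fit of the glucose cultures alone, with adjusted p of 0.133, 0.119, 0.0586 and 0.109. Under a floor of 4 SEC63 and ERO1 were lower in both states and OST2 in Glc24h.

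Other genes of the early secretory pathway, 94 in 9 lists of which 86 were tested, were lower in part. Against Glc5h, 37 of 86 were lower and 4 higher in Glc24h, with a median log2 difference of -0.76, and 30 were lower and 1 higher in Xyl72h, with a median of -0.57. The shares of all tested probe sets stand at 19.1% lower and 14.4% higher in Glc24h and 14% and 11.7% in Xyl72h, and each list below is to be read against them. The 4 were HRD1, NPL4, OCH1 and MDY2 and the 1 was ANP1. Between Xyl72h and Glc24h 0 were higher by limma's adjusted p and 2, NPL4 and OCH1, were lower. At an unadjusted p under 0.05 in limma 12 of 86 were higher and 4 lower there, against 657 and 473 of all 5877 tested probe sets. With the arrays scaled on the reference genes 12 were lower and 8 higher in Glc24h, and 11 lower and 2 higher in Xyl72h.

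The lists with the lowest medians in both states were the other genes of targeting and translocation and those of the COPI coat. Of 10 other genes of targeting and translocation 8 were lower in Glc24h and 5 in Xyl72h, with a median of -1.43 in Glc24h. SRP21, another subunit of the signal recognition particle, had log2 differences of -2.31 (adjusted p = 0.00572) and -1.63 (adjusted p = 0.0293). SEC66, a partner of Sec62 and Sec63, had differences of -2.15 (adjusted p = 0.000525) and -1.95 (adjusted p = 0.00135), and SSH1, a homologue of SEC61, of -1.67 (adjusted p = 0.00547) and -1.02 (adjusted p = 0.0457). The COPI coat, which returns proteins from the Golgi to the ER, was lower in 8 of 8 genes in Glc24h (median -1.41) and in 7 of 8 in Xyl72h, with SEC28 at -2.23, ARF1 at -2.07 and RET3 at -1.87 in Glc24h and adjusted p of 0.00164, 0.00203 and 0.00526. Of 6 genes for insertion of tail-anchored proteins 4 were lower and 1 higher in Glc24h, and 3 lower in Xyl72h; GET1 and GET4 had differences of -1.42 and -1.34 in Glc24h.

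In the other lists fewer genes passed, with shares near those of all probe sets in several. Of 16 other genes of glycan assembly 2 were lower in each state, ALG12 and ALG2, a share below that of all probe sets, and of 7 other genes of folding and glycan trimming 2 were lower in each, the prolyl isomerases FPR2 (-2.37 in Glc24h, adjusted p = 0.0018) and CPR5 (-1.64, adjusted p = 0.00287). Of 9 genes of the COPII coat, which carries cargo out of the ER, 3 were lower in each state: SEC13, SEC12 and SAR1, at -1.38, -0.98 and -0.89 in Glc24h. Of 4 genes that make UDP-N-acetylglucosamine, the first sugar of the N-glycan, 2 were lower in each state, QRI1 and PCM1. Of 15 tested genes of Golgi mannosylation 5 were lower and 1 higher in Glc24h and 4 lower and 1 higher in Xyl72h, with VRG4, the Golgi GDP-mannose transporter, at -2.13 (adjusted p = 0.000201) and -1.44 (adjusted p = 0.00146). In ER-associated degradation 3 of 11 were lower in Glc24h, among them DER1 (-1.28, adjusted p = 0.0103) and CUE1 (-1.08, adjusted p = 0.00904), and 2 were higher, among them the ubiquitin ligase HRD1 (1.36, adjusted p = 0.00571), counts close to the 19.1% and 14.4% of all probe sets.

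**Figure D5:**
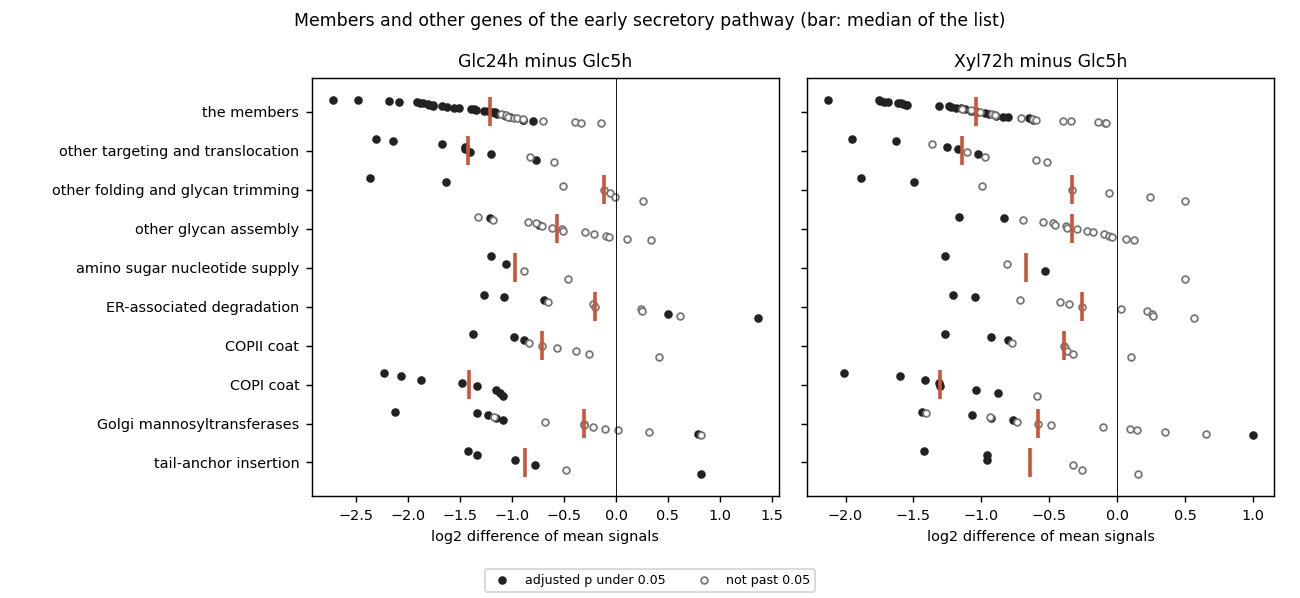
Differences of mean log2 signals from Glc5h (horizontal axes) for the 40 tested genes and 9 lists of other early secretory pathway genes, one point a gene, with the median of each list as a bar. COPI and the other targeting genes have medians near those of the 40 genes, at -1.41 and -1.43 in Glc24h, and ER-associated degradation spreads to both sides of 0.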

How the data were processed

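RNA of 9 yeast samples was hybridised by the authors to 15 Affymetrix Yeast Genome S98 arrays, the sample of fermentation 2 being hybridised 3 times in each state. The methods describe log2 values from Robust Multichip Average, but the table the authors deposited holds linear intensities for 9335 probe sets, extracted with MicroArray Suite 5.0 and scaled to a mean of about 50 without the top and bottom 2%. The harvest time of the sample titles was used where another label differed.

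After removal of 60 control probe sets, each array was scaled to the median 75th percentile (51.08), signals under 16 were set to 16, log2 was taken and the 3 hybridisations were averaged. Of 9275 probe sets, 3398 at the floor on every array were left out and 5877 tested. Of the 9275, 6504 have 1 gene name, 328 several and 2443 are not listed; names come from the array annotation, updated through RefSeq, and a gene is represented by its probe set with the highest mean. One fit of all 3 states was made with limma 3.58.1 (lmFit and eBayes, R 4.3.3), two-sided, with Benjamini-Hochberg adjustment over all 5877 probe sets and 0.05 as the threshold. The fit was tested on simulated data. Errors are standard errors of the fit (n = 3 cultures), and folds are of mean log2 signals.

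The Glc5h and Glc24h samples of a number come from the same culture. The deviations of same-numbered samples correlated at 0.02 to 0.26 for Glc24h and Glc5h, 0.11 to 0.284 for Xyl72h and Glc5h, and 0.529 to 0.577 for Xyl72h and Glc24h. The highest values were thus between states from different cultures, and number 0 of Glc24h and Glc5h showed almost none (0.02). A fit with the number as a block was added beside results it changed. Values in every culture are given for SEC61, KAR2, PDI1, ERO1, HAC1, IRE1, STT3, SEC53, PSA1 and up to 3 genes a role with the lowest F-test p, to which SBH1 and ERV2 were added after their values were seen; in other lists up to 3 genes past the threshold are named by size, and NPL4, OCH1, MDY2 and ANP1 after their values were seen. The genes, lists, tests and alternatives were chosen with earlier results of these data known. Alternatives were other floors, filters, scalings, tests and thresholds, and leaving out each culture. No genome was used, so positions and sequences are not given. Figures were drawn with matplotlib 3.10.9.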

Additional observations from a re-analysis of the deposited data

How the results depend on the processing

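No call on the 40 genes changed direction under any of the alternatives run. Of 58 calls, 14 held under every alternative that tested them, leaving out single cultures included, and 43 of 58 held on leaving out each culture. The filter of a mean log2 of at least 5 tested only 43 of the 58 calls, of which 3 were lost. It left out the Xyl72h calls of SIL1 and SRP68, which are counted among the 14. Calls lost numbered 41 with the reference genes, 12 with no filter, 11 each with a floor of 32 and with the 2 groups alone, 8 with no 75th percentile scaling, 7 with the first hybridisation only, and 4 or fewer under the other settings on all 3 states. Scaling on the 4 reference genes moved the median of all tested probe sets to 0.42 in Glc24h and 0.07 in Xyl72h against Glc5h and to -0.26 between Xyl72h and Glc24h. It left 8 genes lower in Glc24h, 8 lower in Xyl72h and 8 in the F-test, with medians of -0.60, -0.69 and -0.066 in the 3 comparisons, or -1.01, -0.77 and 0.19 relative to all probe sets. The share of all called probe sets that were higher was 83.6%, 70.9% and 10.1% in the 3 comparisons under that scaling, 55%, 48.9% and 38.7% with no 75th percentile scaling, and 42.9%, 45.5% and 59.8% as reported. A floor of 4 gave a median of -1.58 in Glc24h and 1 gene higher there, IRE1, whose signals all lay under 16. The median in Glc24h was -1.02 with no 75th percentile scaling, and that in Xyl72h was -0.87 with a floor of 32.

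The number of genes higher in Xyl72h than in Glc24h was 1 under cyclic loess, quantile normalisation, the first hybridisation only, a floor of 4, limma-trend, a mean log2 of at least 5, no 75th percentile scaling, the reference genes, the 2 groups alone and the replicate block. With the fermentation number as a replicate block in all 3 states, 34 genes were lower in Glc24h, 29 in Xyl72h and 31 passed the F-test, and the block changed no calls other than those given beside the results. In the paired fit of the glucose cultures alone, chosen after the data were seen, 18 were lower. Leaving out single cultures gave 26 to 35 genes lower in Glc24h (median -1.39 to -1.18), 17 to 27 lower in Xyl72h (median -1.21 to -0.97), 1 to 2 higher in Xyl72h than in Glc24h (median 0.06 to 0.24) and 22 to 30 in the F-test. Genes near the floor limit the depth: fold changes of 8 genes in Glc24h and 7 in Xyl72h are lower bounds.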
